A study of Caenorhabditis elegans with 12 samples.

Results

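Nuclear-encoded subunit genes of the mitochondrial respiratory chain were followed in whole Caenorhabditis elegans adults at 2 ages and in 2 genotypes. The 36 genes were taken by their WormBase symbols, matched to the gene identifiers of the count table, and make up 36 of the 46726 identifiers in it. They comprise 8 genes of complex I, 4 of complex II, 7 of complex III, 2 cytochrome c genes, 6 genes of complex IV and 9 of complex V, the ATP synthase. All 36 were found, and all 36 passed the filter on low counts that left 16764 genes for testing. Poly(A)-selected RNA had been sequenced from N2, the laboratory wild type, and from the strain MT12993, which carries the n4115 allele of the microRNA gene mir-71. Both genotypes were collected at day 0 and day 5 of adulthood, with 3 libraries in each of the 4 groups and 12 in all. All 4 groups were kept at 20 °C, and animals of all groups were moved after the last molt to plates with 5-fluorodeoxyuridine at 0.1 mg/mL, a drug that blocks DNA synthesis. Older animals had thus also spent longer on the drug, and the effects of age and drug cannot be told apart.

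Complexes I to IV pass electrons from NADH and succinate to oxygen, with cytochrome c as the soluble carrier between complexes III and IV. Complexes I, III and IV pump protons across the inner mitochondrial membrane, and complex V uses the proton gradient to make ATP. Complexes I, III, IV and V each combine subunits encoded in the nucleus with subunits encoded in the mitochondrial DNA, whereas complex II is wholly nuclear. In C. elegans several of these genes are long known from studies of lifespan and oxidative stress, among them isp-1, nuo-6, gas-1, mev-1 and clk-1 of the ubiquinone pathway. Several subunits exist as pairs of paralogous genes, such as asb-1 and asb-2 for subunit b of the ATP synthase. The asb-1 protein is known as the germline form, and genes on the X chromosome are largely silent in the early stages of the germline.

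The libraries held 20.5 to 65.2 M counts, and 3 counts corresponded to at most 0.157 CPM (counts per M counts of the TMM-scaled library). Markers of muscle, pharynx, intestine, neurons, hypodermis, germline, oocytes and sperm were found in all libraries, with at most 1 marker of a list at 0 in any library, as the label of whole animals calls for. The mir-71 gene had 0 counts in all 12 libraries, so it checks no label. Its host gene ppfr-1 was higher in the mutants, at 466, 841 and 604 CPM against 185, 173 and 191 CPM in N2 at day 0 (log2 1.80 ± 0.20, adjusted p = 0.00376, edgeR). The mutants therefore differ from N2 in ppfr-1 RNA as well as in the microRNA gene. The day 0 libraries stood apart from each other. On the first principal component, with 80.8% of the variance, N2 lay at -82.9, -145.5 and -120.2 and mutants at -75.4, -153.2 and -103.7 (replicates 1, 2 and 3), while all day 5 libraries lay between 90.3 and 133.5.

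Respiratory chain transcripts were lower at day 5 than at day 0 in both genotypes. In N2, 33 of the 36 genes fell and none rose (edgeR quasi-likelihood test, Benjamini-Hochberg adjusted over all tested genes, threshold 0.05). Among all tested genes 52.1% passed, with 28.2% falling and 23.8% rising. The median log2 fold change of the 36 genes was -0.74, against -0.09 for all tested genes. In the mutants 32 of 36 fell and none rose, where 52.3% of all genes passed, 27.4% falling and 24.9% rising. The median there was -0.77 against 0.01. The falls were shared: 31 genes fell in both genotypes, 2 in N2 only, 1 in mutants only, and 2 passed in neither. The 3 that did not pass in N2 were sdhb-1, sdhd-1 and asg-1, and the 4 in mutants were sdha-1, sdhb-1, sdhd-1 and atp-3. For 33 genes in N2 and 32 in mutants every day 5 library lay below every day 0 library, as for 33.4% and 30% of all tested genes. None lay wholly above, as 28.6% and 29.1% of all genes did. In N2 the 36 genes together took 1.36% ± 0.0656 of all counts at day 0 and 0.669% ± 0.0222 (SD, n = 3) at day 5. In mutants the share went from 1.29% ± 0.0817 to 0.646% ± 0.0405. In RNA of whole animals, fewer cells of a type and less RNA per cell cannot be told apart.

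**Figure D1:**
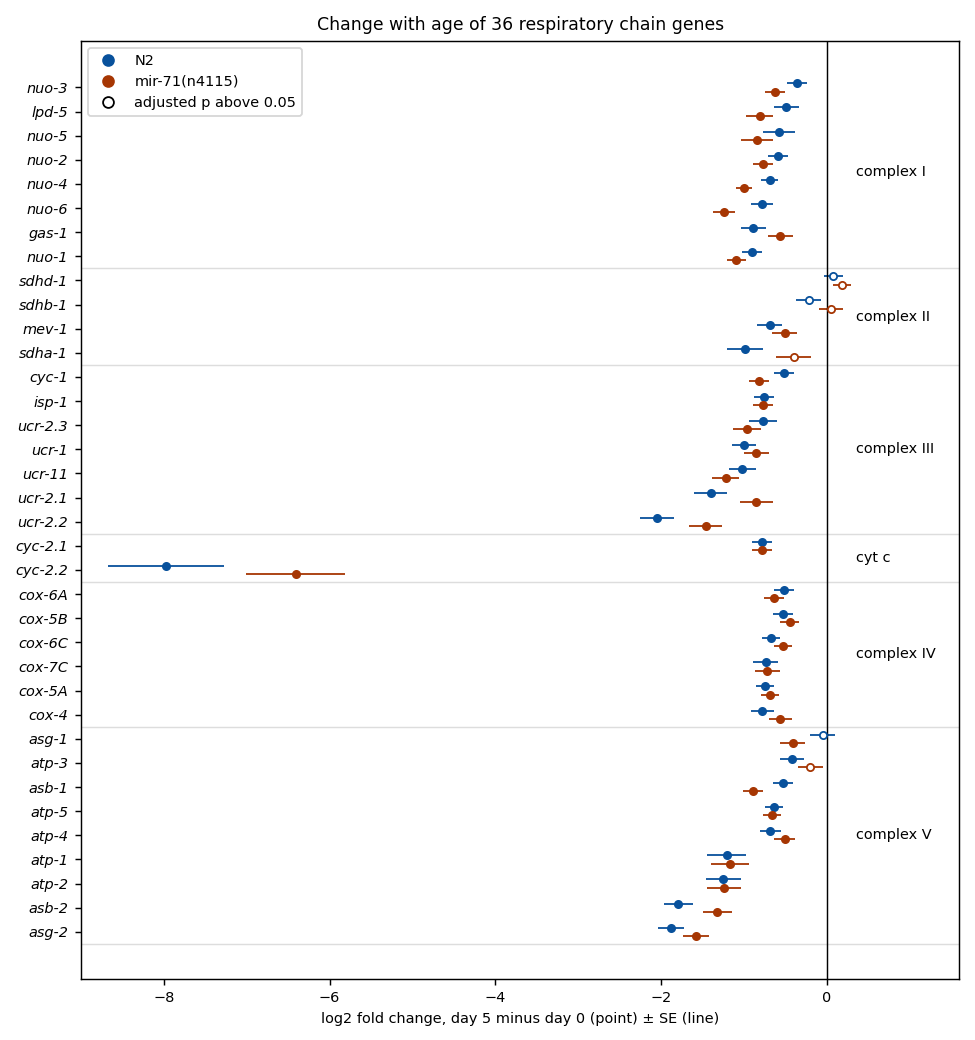
Log2 fold change from day 0 to day 5 (x axis) for each of the 36 genes, ordered by complex, in N2 (blue) and mir-71(n4115) mutants (red), with lines for 1 standard error and open circles for genes that did not pass the test. Nearly all points lie left of 0, cyc-2.2 lies far from the rest, and sdhd-1, sdhb-1 and, in N2, asg-1 sit nearest to 0.

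Markers of body wall muscle, a tissue rich in mitochondria, moved in the same direction, as did those of the pharynx and the hypodermis. All 11 muscle markers fell in N2 (median -2.98) and 10 of 11 fell in mutants (median -1.89). Their summed level was 14100, 21100 and 23300 CPM in N2 at day 0 and 2220 to 2640 CPM at day 5. In mutants it was 11000, 21200 and 15000 CPM at day 0 and 3910 to 4500 CPM at day 5. The muscle medians thus lay below those of the respiratory chain genes in both genotypes, and the muscle sum was lowest in replicate 1 among the day 0 libraries. All 7 pharynx markers fell in N2 (median -2.47) and 6 of 7 in mutants (median -1.33). Of 6 hypodermis markers 5 fell in N2 (median -4.62) and 6 in mutants (median -3.24). Of 9 neuron markers 5 fell and 1 rose in N2 (median -0.65), whereas 3 rose and none fell in mutants (median 0.46). Of 9 intestine markers 5 rose and 3 fell in N2, and 3 rose and 1 fell in mutants. Oocyte markers moved up, with 9 of 9 rising in N2 (median 1.29) and in mutants (median 1.18), and their summed level went from 2450 to 3620 CPM at day 0 to 6440 to 8880 CPM at day 5 in N2. Of 9 general germline markers, 3 rose and 2 fell in N2, and 2 rose and 3 fell in mutants. The part of changed tissue proportions in the respiratory chain result was not tested.

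All 8 complex I genes fell in both genotypes, with medians of -0.64 in N2 and -0.82 in mutants. Complex I takes electrons from NADH, and nuo-1 encodes its flavoprotein that binds NADH. The nuo-1 level was 361, 394 and 409 CPM in N2 at day 0 and 222, 180 and 221 CPM at day 5. Mutants had 355, 387 and 391 CPM at day 0 and 159, 186 and 189 CPM at day 5. The ages did not overlap in either genotype, and the log2 change was -0.90 ± 0.12 in N2 (adjusted p = 6.65e-05) and -1.09 ± 0.12 in mutants (adjusted p = 1.79e-05, edgeR). The accessory subunit gene nuo-6, in which a point mutation is known to extend lifespan, had 110, 112 and 114 CPM in N2 at day 0 and 62.4, 59.1 and 73.6 CPM at day 5. In mutants it went from 158, 115 and 137 CPM to 56.1, 59.7 and 57.2 CPM. Here too the ages were fully separate, with changes of -0.78 ± 0.13 and -1.24 ± 0.13 and the day 0 libraries of the mutants all above those of N2, as for 5.02% of all tested genes. The gene gas-1, on the X chromosome, encodes a core subunit near the ubiquinone site. It fell by 0.89 on the log2 scale in N2 and by 0.56 in mutants (SE 0.15 in both).

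The other complex I genes changed by smaller amounts in N2 than in mutants, although none of these differences passed the test of the difference itself. nuo-5, for the large iron-sulfur subunit, changed by -0.58 ± 0.19 in N2 and -0.84 ± 0.19 in mutants. nuo-2, another core subunit, changed by -0.59 and -0.77, and nuo-4, an accessory subunit, by -0.69 and -1.0. lpd-5, for an iron-sulfur cluster region subunit, changed by -0.49 and -0.81. The smallest fall of the complex in N2 was that of nuo-3, an accessory subunit gene, at -0.36 ± 0.12 (adjusted p = 0.0232), against -0.63 ± 0.12 in mutants. In N2 the calls of nuo-3, nuo-5 and lpd-5 rested on single libraries: without N2 day 5 replicate 2 the adjusted p was 0.0911, 0.073 and 0.0811. The call of nuo-3 was lost without any 1 of 4 N2 libraries, and those of nuo-5 and lpd-5 without either of 2.

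Complex II, succinate dehydrogenase, moved least. It links the tricarboxylic acid cycle to the chain, and 2 of its 4 genes fell in N2 and 1 in mutants. The iron-sulfur subunit gene sdhb-1 had 174, 195 and 217 CPM in N2 at day 0 and 182, 160 and 162 CPM at day 5. Its mutant levels were 127, 198 and 158 CPM at day 0 and 170, 169 and 160 CPM at day 5. The ages overlapped in both genotypes, with log2 changes of -0.22 ± 0.15 (adjusted p = 0.24) and 0.05 ± 0.15 (adjusted p = 0.822). The small membrane anchor gene sdhd-1 had 112, 117 and 117 CPM in N2 at day 0 and 129, 114 and 123 CPM at day 5. In mutants it had 86.1, 110 and 105 CPM at day 0 and 114, 119 and 109 CPM at day 5. Its changes of 0.08 ± 0.11 and 0.18 ± 0.11 did not pass (adjusted p = 0.587 and 0.199). It was the only member with a change above 0 in N2, and with sdhb-1 one of 2 in mutants.

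The other 2 complex II genes fell in N2. mev-1 encodes the large membrane anchor, and its mutation is known for oxygen sensitivity and short life. It fell by 0.69 (SE 0.15) in N2 and by 0.51 (SE 0.15) in mutants, where the call was lost without day 0 replicate 2 (adjusted p = 0.0519). The flavoprotein gene sdha-1 had 79, 106 and 119 CPM in N2 at day 0 and 58.5, 46.9 and 47.5 CPM at day 5, a change of -0.99 ± 0.22 (adjusted p = 0.00215). In mutants it had 60.4, 115 and 80.9 CPM at day 0 and 64.4, 58.9 and 71.3 CPM at day 5. There the ages overlapped through replicate 1, and the change of -0.40 ± 0.21 did not pass (adjusted p = 0.14). Without that library at day 0 it was -0.64 with an adjusted p of 0.0145. The second flavoprotein gene, sdha-2, changed by -0.52 ± 0.17 in N2 and -1.01 ± 0.17 in mutants. Complex II as a whole took a larger part of the counts of the 36 genes at day 5, 5.44% ± 0.251 against 3.77% ± 0.0899 at day 0 in N2, and 6.1% ± 0.405 against 3.59% ± 0.285 in mutants.

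All 7 complex III genes fell in both genotypes, with medians of -1.0 in N2 and -0.85 in mutants. Complex III passes electrons from ubiquinol to cytochrome c. Of the redox subunits, cyc-1 (cytochrome c1) changed by -0.52 ± 0.12 in N2 and -0.82 ± 0.12 in mutants. isp-1, the Rieske iron-sulfur protein, changed by -0.76 ± 0.12 and -0.77 ± 0.12. Its levels were 303, 359 and 339 CPM in N2 at day 0 and 217, 186 and 189 CPM at day 5, and 280, 352 and 305 CPM against 179, 186 and 185 CPM in mutants. The ages were separate in both genotypes. Of the structural core subunits, ucr-1 (core protein 1) changed by -1.0 ± 0.15 and -0.85 ± 0.15. The small subunit gene ucr-11 changed by -1.02 ± 0.16 and -1.22 ± 0.16.

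Core protein 2 of complex III is encoded by 3 paralogous genes that changed by unequal amounts. The X-linked ucr-2.2 had 48, 63.9 and 63.9 CPM in N2 at day 0 and 15.9, 13.3 and 13.3 CPM at day 5, a change of -2.05 ± 0.20 (adjusted p = 7.93e-06). In mutants it had 32.7, 56.7 and 41.6 CPM at day 0 and 16.1, 16.2 and 15.2 CPM at day 5, a change of -1.46 ± 0.20. Every day 5 library lay under every day 0 library, and the day 5 values were close together. The other X-linked copy, ucr-2.1, changed by -1.4 ± 0.20 in N2 and -0.85 ± 0.20 in mutants. The copy on chromosome III, ucr-2.3, changed by -0.77 ± 0.17 and -0.96 ± 0.17.

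The 2 cytochrome c genes showed the largest contrast. The more abundant, cyc-2.1, had 493, 601 and 578 CPM in N2 at day 0 and 352, 288 and 334 CPM at day 5, with 509, 550 and 547 CPM against 310, 330 and 297 CPM in mutants. It changed by -0.78 ± 0.12 in both genotypes, near the median of the 36 genes. Its paralogue cyc-2.2 had 24.7, 54 and 29.1 CPM in N2 at day 0, from 954, 2776 and 971 counts. At day 5 the 3 N2 libraries held 2, 12 and 0 counts. The mutants held 1723, 3356 and 656 counts at day 0 and 41, 13 and 10 at day 5. Transcripts of cyc-2.2 were thus nearly gone from all day 5 libraries, with a fitted log2 change of -7.97 ± 0.70 in N2 (adjusted p = 4.11e-06) and -6.41 ± 0.60 in mutants (adjusted p = 5.56e-06). The size of these fitted changes depends on how 0 counts are treated. Sperm markers fell with it: 10 of 11 fell in each genotype, with a median of -4.26 in N2 and -3.79 in mutants, and their summed level went from 244, 602 and 411 CPM to 36.6, 39.3 and 31.3 CPM in N2. In mutants the sum went from 215, 568 and 292 CPM to 43.1, 39.7 and 36.4 CPM. Replicate 2 at day 0 was highest for both cyc-2.2 and the sperm sum in both genotypes. The part of sperm RNA in this result was not tested.

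The 6 complex IV genes fell together, in a narrow range. Complex IV, cytochrome c oxidase, reduces oxygen, and its nuclear subunits surround a catalytic core encoded in mitochondrial DNA. The changes ran from -0.78 (cox-4) to -0.52 (cox-6A) in N2, with a median of -0.70, and from -0.72 (cox-7C) to -0.45 (cox-5B) in mutants, with a median of -0.60. In between lay cox-5A at -0.75 and -0.69 and cox-6C at -0.67 and -0.53 in N2 and mutants. The most abundant of them by counts, cox-5A, had 456, 545 and 525 CPM in N2 at day 0 and 324, 289 and 295 CPM at day 5. Mutants had 478, 492 and 435 CPM at day 0 and 282, 294 and 296 CPM at day 5. The ages did not overlap, with an SE of 0.11 in both genotypes. In N2 the complex took 14.2% ± 0.277 of the counts of the 36 genes at day 0 and 16.2% ± 0.541 at day 5.

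In complex V, 8 of 9 genes fell in each genotype, and the catalytic subunits fell more than most others. The subunits alpha (atp-1) and beta (atp-2) form the catalytic head and had the highest counts of the 36 genes. atp-1 had 1790, 2170 and 2500 CPM in N2 at day 0 and 1000, 771 and 1010 CPM at day 5, a change of -1.21 ± 0.23 (adjusted p = 0.000736). In mutants it had 1180, 2210 and 1700 CPM at day 0 and 638, 734 and 890 CPM at day 5, a change of -1.17 ± 0.23 (adjusted p = 0.000945). The ages were separate, but replicate 1 of the mutants at day 0 lay near the day 5 values. atp-2 moved in parallel, from 2030, 2620 and 2650 CPM to 1090, 894 and 1090 CPM in N2 and from 1390, 2490 and 1960 CPM to 724, 826 and 931 CPM in mutants. Its changes were -1.25 ± 0.21 and -1.24 ± 0.21. Counts per exonic base of atp-2 over those of atp-1 were 1.12 to 1.27 in the day 0 libraries and 1.1 to 1.22 at day 5, so the pair kept nearly the same ratio while both fell.

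The subunits of the stalks and membrane part of complex V varied more. atp-3, the stalk subunit named for oligomycin sensitivity, changed by -0.42 ± 0.15 in N2 (adjusted p = 0.0281). In mutants its change of -0.20 ± 0.15 did not pass (adjusted p = 0.278), but without day 0 replicate 1 it was -0.37 and passed (adjusted p = 0.043). The N2 call was lost without any 1 of 4 N2 libraries, with an adjusted p of up to 0.0929. The stalk subunit genes atp-4 and atp-5 changed by -0.68 and -0.64 in N2 and by -0.51 and -0.66 in mutants. The share of complex V in the counts of the 36 genes was 51.7% ± 1.18 in N2 at day 0 and 46.1% ± 0.594 at day 5, and 49% ± 3.68 and 44.9% ± 1.27 in mutants.

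**Figure D2:**
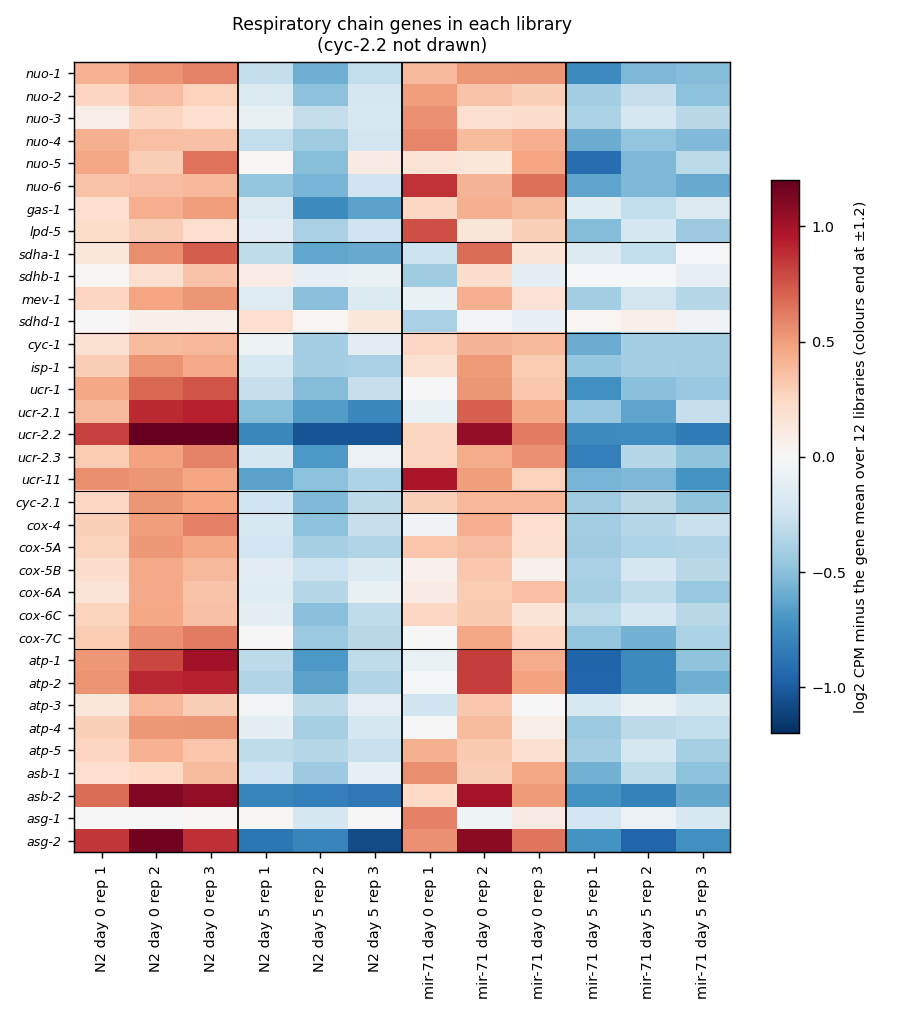
Log2 CPM of 35 of the 36 genes in each of the 12 libraries, as the difference from the gene's own mean over the libraries (red higher, blue lower, colours ending at 1.2 on either side; cyc-2.2 is left out because its range is far wider). Day 0 columns are mostly red and day 5 columns mostly blue, the rows of sdhb-1, sdhd-1 and asg-1 are mostly pale, and N2 day 0 replicate 1 is paler than its 2 neighbours.

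The day 0 libraries differed among themselves in these genes as well. Of the 36 genes, 32 were lowest in replicate 1 among the 3 N2 day 0 libraries, and 22 were lowest in replicate 1 among those of the mutants. These are the libraries nearest to day 5 on the first principal component. Without replicate 1 of both genotypes at day 0, 33 genes fell in N2 and 32 in mutants. Without these 2 and mutant replicate 3, which leaves 1 mutant day 0 library, 33 fell in each.

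For subunits b and g of the ATP synthase, the X-linked gene of each pair had the lower log2 change with age, by a wide margin except for subunit b in mutants. Both subunits belong to the membrane part of the enzyme. asb-1 (WBGene00000206; WBcel235 chromosome III, 4594543 to 4595821) had 222, 228 and 251 CPM in N2 at day 0 and 163, 143 and 180 CPM at day 5, a change of -0.53 ± 0.12 (adjusted p = 0.00322). asb-2 (WBGene00000207; chromosome X, 4469766 to 4471476) had 332, 451 and 436 CPM at day 0 and 120, 118 and 115 CPM at day 5, a change of -1.79 ± 0.18 (adjusted p = 1.1e-05). Per exonic base, asb-2 over asb-1 was 1.3, 1.72 and 1.51 at day 0 and 0.64, 0.719 and 0.553 at day 5, so that the order of the pair turned over in N2. In mutants asb-1 went from 283, 237 and 266 CPM to 130, 156 and 137 CPM (-0.89 ± 0.12). asb-2 went there from 245, 417 and 297 CPM to 127, 119 and 136 CPM (-1.32 ± 0.18). Per exonic base the mutant ratio was 0.753, 1.53 and 0.972 at day 0 and 0.846, 0.665 and 0.865 at day 5, with asb-2 the higher in replicate 2 at day 0 alone.

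The ratio of asb-2 to asb-1 counts was 1.49, 1.98 and 1.74 in N2 at day 0 and 0.736, 0.827 and 0.637 at day 5. In mutants it was 0.866, 1.76 and 1.12 at day 0 and 0.974, 0.765 and 0.996 at day 5. The ages were separate in N2 and overlapped in mutants, there through day 0 replicate 1 alone (0.866). The mean log2 ratio was lower at day 5 by 1.24 in N2 and by 0.40 in mutants, and over both genotypes the change was -0.82 (two-sided exact permutation test within genotype, p = 0.015, adjusted p = 0.0225 over 6 pairs). Leaving out single libraries gave from -0.68 without mutant day 0 replicate 2 (exact permutation p = 0.03) to -0.94 without mutant day 0 replicate 1 (exact permutation p = 0.005). With same-numbered libraries paired, the exact p was 0.0625, where the smallest that the paired test can give is 0.0312. Whether the 2 genotypes' ratio changes differ was not tested.

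The subunit g pair was split more widely. asg-1 (WBGene00000209; chromosome I, 8692946 to 8693468) had 160, 160 and 163 CPM in N2 at day 0 and 163, 140 and 161 CPM at day 5. These groups overlapped, with a log2 change of -0.05 ± 0.15 (adjusted p = 0.782). In mutants it had 245, 155 and 172 CPM at day 0 and 137, 153 and 141 CPM at day 5, a change of -0.41 ± 0.15 (adjusted p = 0.0372). That call was lost without any 1 of 5 libraries, among them mutant day 0 replicate 1, without which the change was -0.24 (adjusted p = 0.106). asg-2 (WBGene00000210; chromosome X, 6841258 to 6842121) had 123, 153 and 126 CPM in N2 at day 0 and 37.5, 39.3 and 32.5 CPM at day 5, a change of -1.88 ± 0.16 (adjusted p = 3.48e-06). Its mutant levels were 100, 145 and 107 CPM at day 0 and 41.7, 35.3 and 41 CPM at day 5, a change of -1.58 ± 0.16 (adjusted p = 8.44e-06). The ages of asg-2 were far apart in both genotypes.

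The ratio of asg-2 to asg-1 counts was 0.769, 0.958 and 0.77 in N2 at day 0 and 0.23, 0.28 and 0.201 at day 5. In mutants it was 0.41, 0.934 and 0.621 at day 0 and 0.305, 0.231 and 0.292 at day 5. The ages did not overlap in either genotype. The change over both genotypes was -1.50 (exact permutation p = 0.005, the smallest this test can give; adjusted p = 0.015). Exons of asg-1 overlap those of another coding gene on the opposite strand, and whether the libraries kept the strand is not stated, so its level is uncertain.

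Among the other pairs, ucr-2.2 fell relative to its autosomal paralogue ucr-2.3, by 0.86 in the mean log2 ratio (exact permutation p = 0.01, adjusted p = 0.02). The change was -1.26 in N2, from 0.454, 0.533 and 0.491 to 0.215, 0.249 and 0.163, with the ages apart. It was -0.46 in mutants, from 0.316, 0.484 and 0.331 to 0.331, 0.239 and 0.248, where the ages overlapped. Pairing same-numbered libraries gave an exact p of 0.0625 over both genotypes. Exons of both genes overlap a coding gene on the opposite strand. The ratio of ucr-2.1 to ucr-2.3 changed by -0.23 over both genotypes, which did not pass (exact permutation p = 0.295). This value averages -0.60 in N2, from 1.13, 1.42 and 1.34 to 0.868, 1.08 and 0.656 without overlap, and 0.15 in mutants, from 0.835, 1.29 and 1 to 1.38, 0.872 and 1.23 with overlap. For cyc-2.1 over cyc-2.2 the change was 6.83 (exact permutation p = 0.005, adjusted p = 0.015), with count ratios of 11.1 to 20 in N2 at day 0 and of 1230 and 4140 in the 2 day 5 libraries with a cyc-2.2 count. gas-1 has an autosomal paralogue, nduf-2.2, for the same subunit. The ratio of gas-1 to nduf-2.2 changed by 0.20 over both genotypes and did not pass (exact permutation p = 0.25). In N2 it changed by -0.13, from 0.884, 1.04 and 1.06 to 1.19, 0.863 and 0.717, and the ages overlapped. In mutants it changed by 0.53, from 1.02, 1.14 and 0.97 to 1.69, 1.3 and 1.53, and they did not. Within 1 genotype, 3 libraries against 3 were not tested. Adding 5 counts in place of 0.5, or using the authors' deposited log2 values, left each of the 6 ratios on its side of the threshold.

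**Figure D3:**
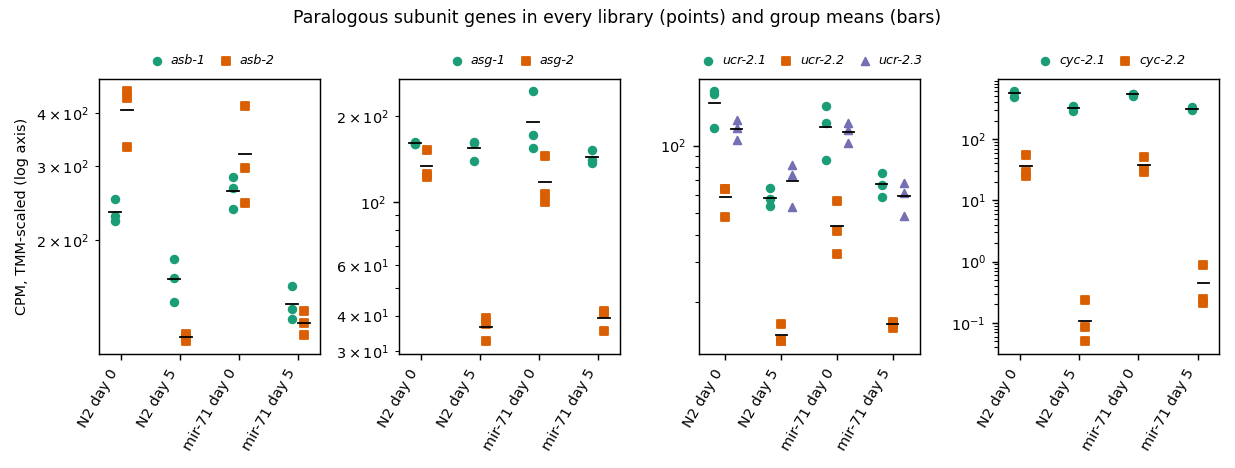
CPM on log axes of paralogous subunit genes in every library (points) with group means (bars), for subunit b (asb-1, asb-2), subunit g (asg-1, asg-2), core protein 2 (ucr-2.1, ucr-2.2, ucr-2.3) and cytochrome c (cyc-2.1, cyc-2.2; the library with 0 counts is drawn at 0.05). The order of asb-1 and asb-2 switches between day 0 and day 5 in N2, and asg-2 and cyc-2.2 in both genotypes, and ucr-2.2 in N2, drop away from their paralogues at day 5.

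The median change with age of the X-linked members lay below that of the autosomal members, by more in N2 than in mutants. Of the 36 genes, 6 are on the X chromosome (gas-1, sdha-1, ucr-2.1, ucr-2.2, asb-2 and asg-2), which is 16.7% of them, against 13.6% of protein-coding genes. All 6 fell in N2, with a median of -1.60, against a median of -0.69 for the 30 autosomal members. In mutants 5 of 6 fell with a median of -1.09, against -0.77 for autosomal members. Of the 30 autosomal members 27 fell in each genotype. All tested X-linked coding genes had medians of -0.24 in N2 and 0.16 in mutants, and autosomal ones -0.03 and 0.00. Of 2185 tested X-linked coding genes 598 fell in N2 and 399 in mutants, and of 13430 autosomal ones 3753 and 3809. The spread among the 6 was wide in N2, from -0.89 (gas-1) to -2.05 (ucr-2.2). In mutants it ran from -0.40 (sdha-1, which did not pass) to -1.58 (asg-2), and sdha-1 and gas-1 (-0.56) lay above the autosomal median.

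The genotype comparison at day 5 split the same members by chromosome, in amounts that did not pass the test gene by gene. All 6 X-linked members were higher in mutants than in N2 at day 5, by 0.11 to 0.35 on the log2 scale (median 0.18), and 28 of 30 autosomal members were lower (median -0.12). Under other scalings all 6 X-linked members stayed above 0, while the number of autosomal members below 0 went from 21 with upper-quartile factors (median -0.04) to 29 with RLE factors (median -0.20). At day 0 the 6 X-linked members all lay below 0 in mutants against N2, at -0.42 to -0.03, and 5 of 6 did so without mutant day 0 replicate 1 or without N2 day 0 replicate 3. With N2 replicate 1 and mutant replicates 1 and 3 left out at day 0, which leaves 1 mutant library, 4 of 6 did (-0.20 to 0.05). Their changes with age differed between the genotypes by 0.30 to 0.59, each change being nearer to 0 in mutants, and none of these differences passed (adjusted p of 0.353 to 0.57). These sizes rested on the day 0 libraries, at 0.16 to 0.38 without mutant replicate 1 and 0.37 to 0.87 without mutant replicate 2. They were 0.02 to 0.36 without the 3 libraries named above. The X-linked part of this pattern was not particular to the respiratory chain. Of 2185 tested X-linked coding genes 1754 were higher in mutants at day 5, with a median of 0.39. Of 13430 tested autosomal coding genes 6887 were lower, with a median of -0.02. Under TMM scaling this was a more even split than that of the autosomal members. Markers of muscle, pharynx and neurons were also higher in mutants at day 5. Of all 16764 tested genes, 1279 rose there, 519 fell and 8899 lay above 0. Of the muscle markers 5 of 11 passed and 11 of 11 lay above 0 (median 0.74), of the pharynx markers 4 of 7 passed and 7 of 7 lay above 0 (median 1.37), and of the neuron markers 4 of 9 passed and 9 of 9 lay above 0 (median 0.70). Markers of the germline (9 of 9 below 0, median -0.39) and of oocytes (9 of 9 below 0, median -0.24) were lower there without any passing. Of 9 intestine markers 2 rose and 2 fell (median 0.29). Of 6 hypodermis markers 1 rose and 4 lay above 0 (median 0.75). Of 11 sperm markers 9 lay above 0 without any passing (median 0.43). The part of tissue proportions in this split was not tested.

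**Figure D4:**
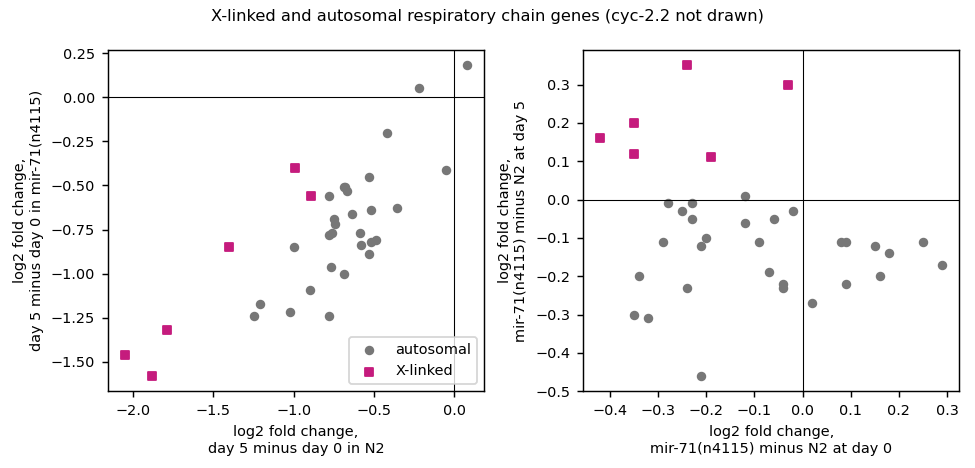
Left, change with age in mir-71(n4115) mutants (y axis) against that in N2 (x axis); right, difference between mutants and N2 at day 5 (y axis) against that at day 0 (x axis), all as log2 fold changes, for X-linked (squares) and autosomal (circles) members without cyc-2.2. In the right panel the 6 X-linked genes lie above 0 at day 5 and the autosomal genes below it except cox-6C at 0.01 under TMM scaling, with more of them above 0 under upper-quartile factors; the 2 axes of a panel share no libraries.

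No member differed between the genotypes by edgeR's test at either age. At day 0, 0 of 36 passed, where 0.131% of all tested genes did, and 4 had an unadjusted p up to 0.05 (nuo-6, ucr-1, ucr-2.2 and atp-4). DESeq2 and limma on the deposited log2 values also called 0 there. Only sdhd-1 was lower in mutants without overlap, as 4.3% of all genes were, and nuo-6 higher. At day 5, 0 of 36 passed against 10.7% of all genes, with 2 at an unadjusted p up to 0.05 (nuo-5 and cyc-1). DESeq2 called 1, nuo-4, at -0.30 (adjusted p = 0.0418), where it called 18.8% of the 15788 genes it tested. The nuo-5 level at day 5 was 299, 208 and 316 CPM in N2 and 157, 204 and 236 CPM in mutants, a difference of -0.46 ± 0.19 (adjusted p = 0.132). It passed without N2 day 5 replicate 2, at -0.64 (adjusted p = 0.0439). Groups without overlap at day 5 were found for nuo-4 and isp-1, lower in mutants, and sdha-1, higher in mutants, against 16.1% and 22.3% of all genes in these directions. The largest difference was that of cyc-2.2, at 1.62 ± 0.78 (adjusted p = 0.194), on counts too few to set its size.

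The change with age was not found to differ between the genotypes for any member. By edgeR 0 of 36 passed, where 0.555% of all genes did, and nuo-6 alone had an unadjusted p up to 0.05 (difference -0.46 ± 0.18, adjusted p = 0.281). DESeq2 and limma on the log2 values also called 0. DESeq2 called 4.14% of the 13513 genes it tested there, and limma 0.966% of 16764. Differences between changes had a standard error of 0.14 to 0.32 apart from cyc-2.2, so that differences of this size would not be resolved. The median difference over the 36 genes was 0.03, against 0.06 over all tested genes. By complex it was -0.26 in complex I, where 7 of 8 differences lay below 0, and 0.22 in complex II, where all 4 lay above 0. Of 16764 tested genes 7641 lay below 0 and 9123 above. In mutant day 0 replicate 1 complex I took 17.8% of the members' counts, against 12.4% and 15.4% in the other mutant day 0 libraries. All 4 complex II genes were lowest in that library of the group. How far the values by complex rest on it was not tested.

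The remaining genes of the pathway, from lists drawn up by function, showed the same direction with age. Of 23 other nuclear subunit genes 21 fell in N2 (median -0.72) and 22 in mutants (median -1.0). The complex I accessory genes ndua-8 and ndub-8, those with the smallest p in N2, changed there by -1.35 ± 0.13 and -1.22 ± 0.12. Of the 12 subunits encoded in mitochondrial DNA, 8 fell in N2 (median -0.84) and 12 in mutants (median -1.25). Among them the complex I genes nduo-3 and nduo-6 changed by -1.63 ± 0.33 and -1.45 ± 0.34 in N2 and by -2.17 ± 0.34 and -2.11 ± 0.35 in mutants. In N2 these 12 took 1.82% ± 0.267 of all counts at day 0 and 0.923% ± 0.327 at day 5, and 2.34% ± 0.876 and 0.884% ± 0.294 in mutants. Nuclear and mitochondrial subunit RNA were thus both lower at day 5, and the mitochondrial share varied more between libraries. How far poly(A) selection captures mitochondrial transcripts was not tested.

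Genes that build or feed the chain differed by list. Those of assembly and ubiquinone synthesis were mixed in N2, while no gene of the tricarboxylic acid cycle rose. Among all tested genes 28.2% fell and 23.8% rose in N2, and 27.4% fell and 24.9% rose in mutants. Of 11 assembly factor genes 5 fell and 1 rose in N2, and 8 fell and 1 rose in mutants. The heme A synthesis gene cox-10 changed by -1.17 ± 0.16 and -1.44 ± 0.16 and the copper chaperone gene sco-1 by -0.79 ± 0.13 and -0.88 ± 0.13. The 1 that rose was cchl-1, for the enzyme that attaches heme to cytochrome c, at 0.43 ± 0.09 and 0.29 ± 0.09. Of 8 ubiquinone synthesis genes only coq-3 fell in N2 and coq-6 rose, and clk-1 was at -0.36 ± 0.18 (adjusted p = 0.108). In mutants 3 of the 8 fell. Among 18 genes of the tricarboxylic acid cycle 15 fell in N2 and 14 in mutants, with medians of -0.79 and -0.65. Of these idhg-2, for an isocitrate dehydrogenase subunit, changed by -2.74 ± 0.16 and -3.12 ± 0.17, and dld-1, for dihydrolipoamide dehydrogenase, by -1.37 ± 0.15 in both. Of 69 mitochondrial ribosomal protein genes 39 fell and 1 rose in N2 (median -0.45) and 57 fell in mutants (median -0.79), with mrpl-37 at -1.36 and -1.58 and mrps-12 at -1.34 and -1.89. The protein import list had 2 of 7 falling in N2, near the share of all tested genes, and 5 of 7 in mutants. Its gene tin-44 changed by -0.81 and -1.26 and tomm-22 by -0.66 and -1.22.

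The genes that export or conserve ATP included other steep falls. The main ADP/ATP carrier gene, ant-1.1, went from 3230, 4050 and 3990 CPM to 2150, 1880 and 2160 CPM in N2 (-0.86 ± 0.17) and fell by 0.59 in mutants. The carriers ant-1.3 and ant-1.4 changed by -4.60 ± 0.72 and -4.91 ± 0.83 in N2, with day 0 levels that were highest in replicate 2, as for cyc-2.2. The ATP synthase inhibitor gene mai-2 changed by -1.11 ± 0.18 in N2 and -1.52 ± 0.18 in mutants. Its paralogue mai-1 changed by -1.32 ± 0.23 in N2 and by -0.43 ± 0.22 in mutants (adjusted p = 0.122). mai-1 was higher in mutants than in N2 at day 5, at 20.6, 15.1 and 13.3 CPM against 6.84, 8.26 and 5.45 CPM (1.25 ± 0.23, adjusted p = 0.00527). bcs-1 (-0.47, adjusted p = 0.0452) and nduf-2.2 (-0.41, adjusted p = 0.0472) were lower in mutants at day 5. Such calls were few in the related lists, where 10.7% of all tested genes passed. They were 1 of 6 genes of ATP export and inhibition, 1 of 11 assembly factors, 1 of 23 other nuclear subunits and 1 of 18 tricarboxylic acid cycle genes. Of 12 mitochondrially encoded, 8 ubiquinone synthesis, 69 mitochondrial ribosomal and 7 import genes 0 passed.

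**Figure D5:**
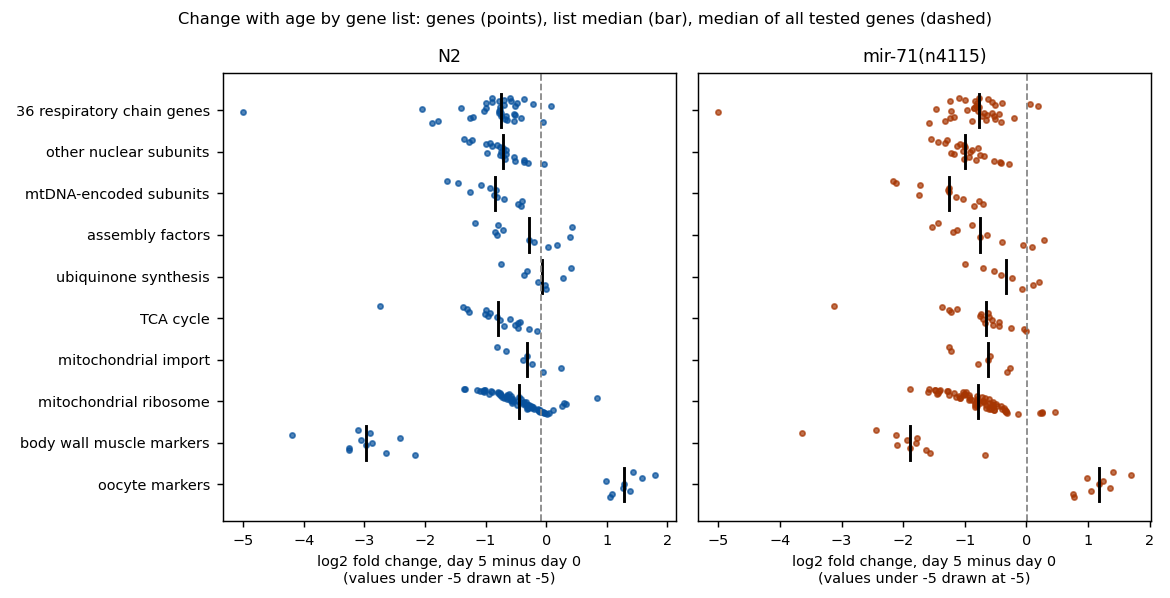
Log2 fold change from day 0 to day 5 (x axis) of every tested gene (points) in 10 gene lists, in N2 (left) and mir-71(n4115) mutants (right), with list medians (bars) and the median of all tested genes (dashed line); values under -5 are drawn at -5. The medians of the respiratory chain, mitochondrial DNA and tricarboxylic acid cycle lists lie left of the dashed line. The median of the muscle markers lies further left, and that of the oocyte markers lies to its right.

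Per kilobase of exon, the 36 genes spanned a wide range of levels. In N2 at day 0 the highest were atp-2 at 1260 ± 180, atp-1 at 1060 ± 174 and cyc-2.1 at 1020 ± 103 CPM per kilobase, followed by atp-5 at 843 ± 46.6. There atp-2 lay above atp-1 in every library, whereas atp-1 and cyc-2.1 differed by less than their SD. The lowest were sdha-1 at 42.1 ± 8.47 and ucr-2.2 at 40.7 ± 6.37, which could not be separated either. At day 5 the order at the top was cyc-2.1 at 591 ± 59.5, atp-5 at 539 ± 12.7, atp-2 at 531 ± 59 and atp-1 at 457 ± 67.3, of which cyc-2.1 and atp-2 differed by about 1 SD, and atp-5 and atp-2 by less. asb-2 went from place 13 to place 27 of the 36 in N2 and asg-2 from 19 to 30, while sdhd-1 moved from 23 to 14 and sdhb-1 from 24 to 17. Mutants showed similar moves, asb-2 from 17 to 24, asg-2 from 20 to 29, sdhd-1 from 26 to 14 and sdhb-1 from 28 to 17. Exonic lengths were 281 to 2444 bases, and 10 of the 36 genes (nuo-1, nuo-3, nuo-5, nuo-6, gas-1, cyc-1, ucr-2.2, ucr-2.3, atp-4 and asg-1) have exons that overlap another coding gene, so that their counts are less certain than those of the other 26.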

How the data were processed

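The authors deposited raw read counts per gene for 12 libraries and a table of regularized log2 values (rlog, per the file name in the labels) of the same libraries. Per the submitters' processing notes the build was WBcel235, and STAR 2.4.0h and DESeq2 were among the tools. Which program counted reads, on which annotation and strand, is not stated. Groups came from the labels, and the series' design text calls the replicates biological.

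Here, the deposited counts were TMM-scaled, filtered with filterByExpr and fitted with 4 group means in edgeR 4.0.16 under R 4.3.3 (quasi-likelihood, 8 residual degrees of freedom, common dispersion 0.0714), without a replicate block. P-values were adjusted by Benjamini-Hochberg over the 16764 tested genes, separately in 5 contrasts, with a threshold of 0.05. SE is that of the log2 fold change. Levels are CPM on TMM-scaled totals, given by replicate number 1, 2 and 3 or as mean ± SD with n = 3. Paralogue ratios used counts plus 0.5 and an exact permutation test over 400 assignments within genotype (smallest p 0.005). Gene models and exonic lengths came from Ensembl release 115 (WBcel235). Mitochondrial genes were matched by position. Named were all 36 members, the 2 genes of each other pathway list with the smallest p with age in N2, nduf-2.2 and ppfr-1; the rule held for marker lists too, which are given here as lists only. Other genes of those lists (sdha-2, cchl-1, clk-1, ant-1.1, ant-1.4, mai-1, bcs-1) were chosen after their values were seen. The members and lists were chosen with earlier results of these data known, so the direction of the list is not independent evidence.

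Same-numbered replicates deviated together between the genotypes at day 0 (correlations 0.76, 0.66 and 0.28) and not in the other contrasts, where at least 1 correlation was at or below 0.1. Alternatives were other scalings, no filter (26672 genes), DESeq2 1.42.0, limma 3.58.1 on the rlog values, only the groups compared, a replicate block and each library left out. Depth was 20.5 to 65.2 M counts per library, and limits from 3 counts cover counting error only. No sequences are printed.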

Additional observations from a re-analysis of the deposited data

How the results depend on the processing

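With age, 33 of the 36 genes fell in N2 under every scaling, filter, tool and block tried, and 31 or 32 in mutants. Leaving out single libraries gave 29 to 33 in N2 and 31 to 33 in mutants, and 29 of 33 and 30 of 32 calls held under all alternatives. The calls lost were nuo-3, nuo-5, lpd-5 and atp-3 in N2 and mev-1 and asg-1 in mutants, and sdha-1 and atp-3 were gained in mutants without day 0 replicate 1; asg-1 was also lost with TMM factors computed without germline and cuticle genes (adjusted p = 0.053) and with the mutant libraries alone (adjusted p = 0.0854). The members' median in N2 was -0.88 with upper-quartile factors, where the median of all genes was -0.22, and -0.51 on the rlog values. Between genotypes no member was called at day 0 or for the difference between changes under any alternative. At day 5 DESeq2 called 1 of the 36, where it called 18.8% of the 15788 genes it tested, and leaving out single libraries gave 0 to 1. The cause was not tested. With the replicate block the edgeR counts were 33, 32, 0, 0 and 0 and no member's call changed. Pairing same-numbered libraries raised the exact p of the ratios asb-2 to asb-1 (-0.82) and ucr-2.2 to ucr-2.3 (-0.86) to 0.0625. That of asg-2 to asg-1 and of cyc-2.1 to cyc-2.2 became 0.0312, the smallest that the paired test can give. Removing 2 or 3 day 0 libraries was chosen after seeing the data. With 3 libraries per group and these standard errors, small differences between genotypes were not resolved.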

Other observations

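The mutant day 0 library numbered 1 was both low and high among its group. Of the 36 genes, 22 were lowest and 9 highest in it. Highest there were asg-1 (245 CPM against 155 and 172), lpd-5 (174 against 113 and 124), nuo-6 (158 against 115 and 137) and ucr-11 (115 against 82.3 and 70.5). Lowest were atp-1 (1180 against 2210 and 1700), asb-2 (245 against 417 and 297) and all 4 complex II genes, as for sdhd-1 (86.1 against 110 and 105). Complex I took 17.8% of the members' counts in that library, against 12.4% and 15.4% in the other mutant day 0 libraries and 12.4% to 14.3% in N2 at day 0. The 12 mitochondrially encoded genes took 3.333% of all its counts, the highest of the 12 libraries.

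The 2 flavoprotein genes of complex II stood at similar levels. Counts per exonic base of sdha-1 over those of sdha-2 were 0.518 to 1.02 at day 0 and 0.433 to 1.24 at day 5. At day 5 all 3 mutant libraries (1.24, 0.928 and 1.11) lay above all 3 N2 libraries (0.769, 0.711 and 0.433). This split was noticed in the data and was not tested.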
